A study of Mus musculus with 12 samples.

Results

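Interleukin-10, Stat3 and the SOCS inhibitors form a feedback circuit of cytokine signalling, and their genes were followed here in mouse bone marrow derived macrophages given the fungus Candida albicans. The set holds 10 genes, found by symbol among 25230 rows of the deposited expression table. They are the ligand gene Il10, the receptor genes Il10ra and Il10rb, the kinase genes Jak1, Tyk2 and Jak2, the transcription factor gene Stat3 and the inhibitor genes Socs3, Socs1 and Cish. Each gene passed the low-value filter of at least 1 TPM (the deposited transcript abundance, scaled by gene length and by library) in at least 3 libraries, as did 11280 genes in all.

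Polyadenylated RNA was sequenced from 12 libraries in 4 groups of 3. These were Piezo1 knockout macrophages with C. albicans, wild-type macrophages with C. albicans, Piezo1 knockout macrophages with PBS and wild-type macrophages with PBS. Piezo1 encodes a cation channel that opens under membrane stretch, and the series asks what it contributes to sensing of fungal hyphae. All groups shared the culture: marrow cells grown with M-CSF at 50 ng per ml for a further 8 days, which the submitters found to carry CD11b and F4/80. The sources used here give neither the fungal dose nor the time of exposure, the age of the mice or the way the knockout was made. The knockout PBS libraries are PBS by their treatment label but carry DMSO in their titles. A vehicle difference thus cannot be told apart from genotype against wild-type PBS, nor from C. albicans in the knockout response. It would also enter the difference between the responses. The labels do not say whether replicates came from separate animals, and p-values measure only the spread among these libraries.

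Reads in genes numbered 16400119 to 25741091 per library. Piezo1 averaged 64.9 ± 0.756 TPM in knockout and 137 ± 8.68 TPM in wild-type macrophages with C. albicans (SD, n = 3 each), and 65.4 ± 2.72 TPM in knockout and 135 ± 4.69 TPM in wild-type macrophages with PBS. Its counted signal was thus lowered rather than absent. Of its exonic bases, 24.6% are shared on the opposite strand with Ctu2. The sources used here do not say whether strand was used in counting, so Ctu2 reads could be included. All 10 macrophage markers exceeded 1 TPM, with summed levels of 16678 to 16822 TPM in knockout C. albicans libraries, 22657 to 24214 in wild-type C. albicans, 16176 to 16388 in knockout PBS and 26526 to 27060 in wild-type PBS. Lyz2 carried that difference between sums. Without it the 9 other markers summed to 7268 to 7385 TPM in knockout C. albicans, 7195 to 7532 in wild-type C. albicans, 7119 to 7228 in knockout PBS and 7097 to 7110 in wild-type PBS. Single markers did not all match. With PBS, Itgam averaged 77.8 TPM in knockout and 136 in wild type, Mrc1 87.3 and 141, and Cd68 3079.4 and 2486.5. Mean Adgre1, Csf1r, Mertk and Fcgr1 were also lower in the knockout with PBS, Cd14 was higher and Spi1 was similar. Of 8 neutrophil markers, 2 reached 1 TPM in any library while Ly6g, S100a9 and Mpo stayed under 0.1 TPM on average. Their summed level was 3.06 to 5.26 TPM in knockout C. albicans, 6.56 to 8.14 in wild-type C. albicans, 4.19 to 5.63 in knockout PBS and 2.21 to 2.75 in wild-type PBS. Without S100a8 the sum was at most 1.20 TPM in every library, and its groups overlapped. The library of replicate 1 in wild type with C. albicans was unlike its 2 fellows, at 14.5 and 15.4 chi-square units per degree of freedom from them in its reads per gene, where the other 10 replicate pairs differed by 1.49 to 4.40. Results of the 10 genes whose call changes without it are given both ways.

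Interleukin-10 is a cytokine that restrains inflammatory gene expression in macrophages. It binds a receptor made of the IL10RA and IL10RB chains, whose attached kinases JAK1 and TYK2 phosphorylate STAT3, which then enters the nucleus and drives its target genes. SOCS3 is induced by STAT3 and by inflammatory stimuli and blocks receptors of the IL-6 family. SOCS1 mainly restrains interferon signalling, and CISH restrains cytokines that signal through STAT5.

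The largest responses to the fungus lay at the ends of the circuit. Both genotypes raised Il10 and Socs3 after C. albicans, and the rise of each was smaller in the knockout. The receptor chains and the kinases JAK1 and TYK2 moved little with the fungus. Stat3 fell with the fungus in wild type, whereas its response in the knockout did not pass the test. Jak2 rose in wild type, and its knockout response did not pass. Cish rose in both genotypes, though its knockout call was lost in many alternatives. Il10ra, Jak1, Tyk2 and Jak2 were, like Il10 and Socs3, lower in the knockout with C. albicans.

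**Figure D1:**
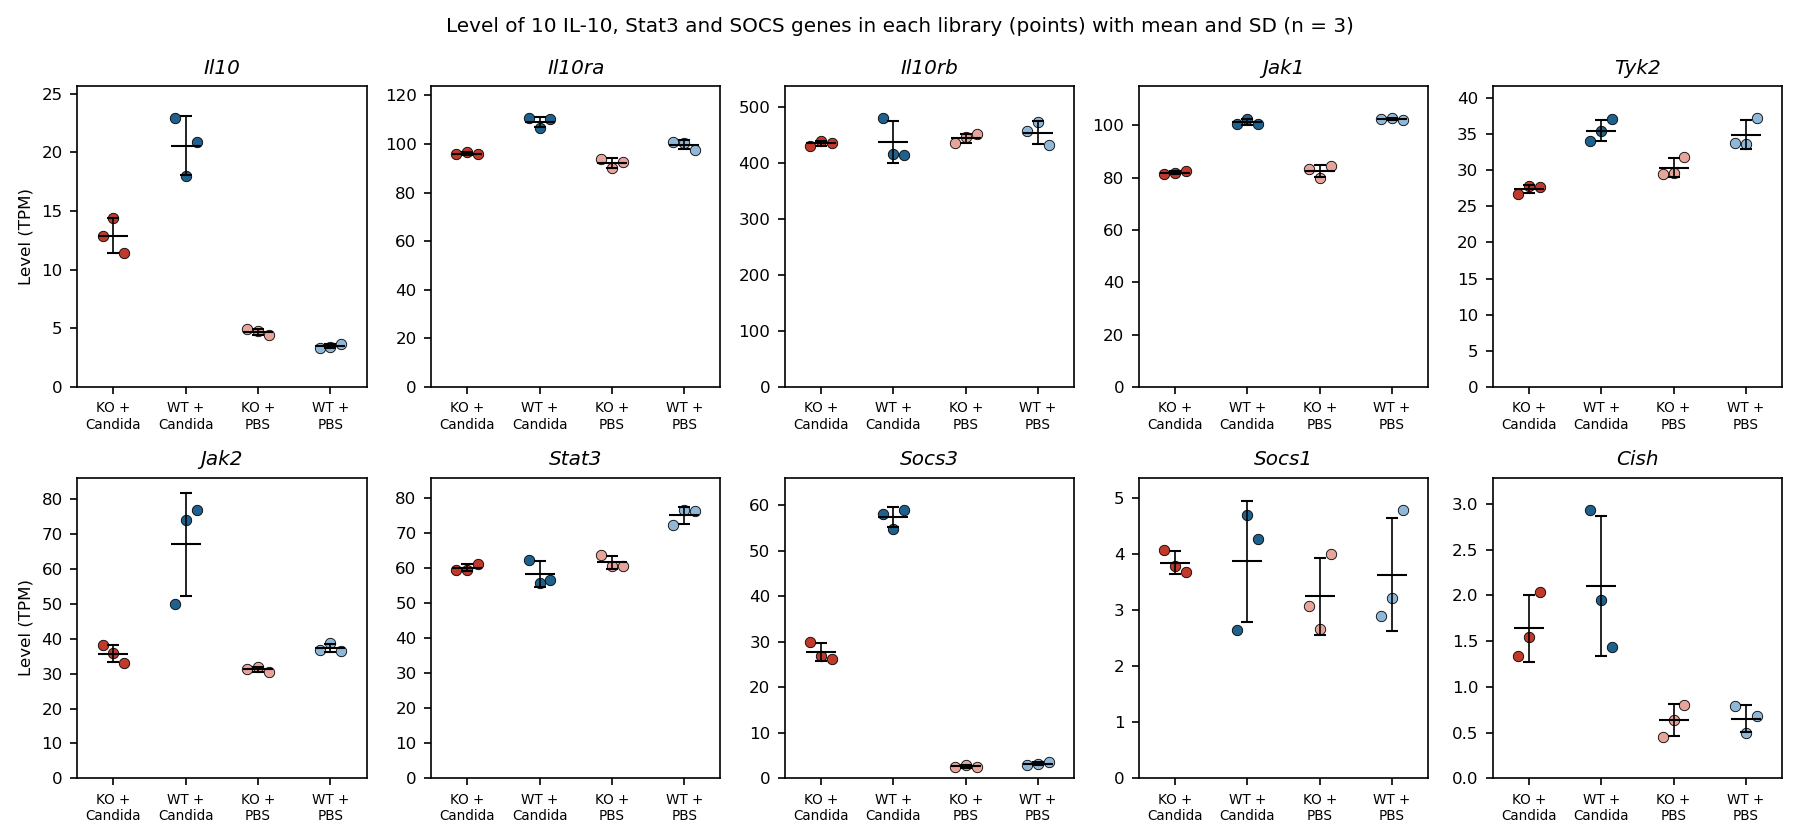
Level in TPM (y axes, from 0) of the 10 genes in each library (points) for knockout and wild type with C. albicans and with PBS, with bars for mean and SD (n = 3). Socs3 sat between 26.2 and 30.0 TPM in knockout and between 54.9 and 59.0 TPM in wild-type C. albicans libraries, and under 4 TPM in every PBS library.

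Il10 lies on chromosome 1 at 131019845 to 131024974 (GENCODE annotation of GRCm38, the assembly that mm10 names; the same source holds for the other positions). It had 12.8, 14.4 and 11.4 TPM in knockout libraries with C. albicans, and 4.92, 4.76 and 4.43 TPM in knockout libraries with PBS. In wild type it had 22.9, 17.9 and 20.9 TPM with C. albicans, and 3.33, 3.43 and 3.67 TPM with PBS. The 4 groups did not overlap: wild type was higher with the fungus and lower with PBS. The levels rest on 160 to 206 reads in knockout and 221 to 240 in wild type with C. albicans, and on 43 to 75 in knockout and 33 to 40 in wild type with PBS. In bulk RNA, fewer cells that express a gene and less RNA per cell cannot be told apart.

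Il10 rose by 1.28 on the log2(TPM + 1) scale in the knockout (SE 0.10, adjusted p = 1.72e-06 by limma) and by 2.26 in wild type (SE 0.10, adjusted p = 1.47e-09). On this scale the change of a low gene is understated. As a plain ratio of mean TPM, C. albicans over PBS was 2.74 in the knockout and 5.91 in wild type. Taking the knockout response minus the wild-type response gave -0.98 (95% interval -1.28 to -0.69, adjusted p = 4.96e-04). The gain in TPM in the knockout was 47.9% of that in wild type. With C. albicans the knockout level was 62.6% of wild type (log2 difference -0.63, adjusted p = 2.06e-04), and with PBS it was 135% (0.35, adjusted p = 0.0144). The PBS difference did not pass when a trend with gene length and GC content was removed, with voom on reads or without knockout PBS replicate 1. Of the neutrophil markers S100a8 was also higher with C. albicans in wild type, and its part in the Il10 result was not tested.

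Il10ra, on chromosome 9 at 45253837 to 45269149, encodes the chain that binds the cytokine. Its level was 96.1 ± 0.541 TPM in knockout and 109 ± 2.10 TPM in wild type with C. albicans, and 92.2 ± 1.90 TPM in knockout and 99.7 ± 1.82 TPM in wild type with PBS (SD, n = 3 each). Its response of 0.06 in the knockout did not pass (adjusted p = 0.292), and it rose by 0.13 in wild type (adjusted p = 0.00544). With C. albicans it was lower in the knockout by a log2 difference of -0.18 (adjusted p = 6.30e-04). Over 21 alternatives that difference lay between -0.20 and -0.10, and the wild-type rise between 0.12 and 0.26. With PBS the difference of -0.11 (adjusted p = 0.0184) was lost in 7 of 21 alternatives. The responses did not differ detectably between genotypes (-0.07, adjusted p = 0.337).

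Il10rb, on chromosome 16 at 91406164 to 91425834, encodes the shared chain that also serves other receptors of the family. It was the most abundant of the 10 genes in every group, with 436 ± 4.34 TPM in knockout and 438 ± 37.4 TPM in wild type with C. albicans, and 445 ± 7.93 TPM in knockout and 455 ± 20.7 TPM in wild type with PBS. Its 3 wild-type C. albicans libraries held 481, 418 and 414 TPM. No comparison of Il10rb passed with all libraries, and without the first of those libraries the wild-type response of -0.13 did (adjusted p = 0.0077). Of its exonic bases, 14.9% are shared on the same strand with Gm21970, so its reads could be split by the counting.

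Jak1 and Tyk2 encode the kinases attached to the IL-10 receptor. Jak1 (chromosome 4, 101152367 to 101265282) had 81.9 ± 0.528 TPM in knockout and 101 ± 1.17 TPM in wild type with C. albicans, and 82.5 ± 2.26 TPM in knockout and 102 ± 0.307 TPM in wild type with PBS. The knockout thus held 80.9% of the wild-type level with the fungus and 80.6% with PBS, with log2 differences of -0.30 (adjusted p = 1.30e-05) and -0.31 (adjusted p = 2.55e-05). Both calls held in all 21 alternatives, although each difference shrank to -0.13 with the length and GC trend removed. The fungus itself gave log2 differences of -0.01 in the knockout and -0.02 in wild type, and neither passed.

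Tyk2 (chromosome 9, 21104068 to 21131243) had 27.4 ± 0.566 TPM in knockout and 35.5 ± 1.51 TPM in wild type with C. albicans, and 30.3 ± 1.33 TPM in knockout and 34.9 ± 2.0 TPM in wild type with PBS. It was lower in the knockout with the fungus by a log2 difference of -0.36 (adjusted p = 1.62e-04). With PBS the difference was -0.20 (adjusted p = 0.0133), and it did not pass with median-ratio or upper-quartile scaling, with the length and GC trend removed, with voom or without knockout PBS replicate 1. Its responses, -0.14 in the knockout and 0.02 in wild type, did not pass. With the length and GC trend removed the wild-type response became 0.19 and passed (adjusted p = 0.0145). The responses differed by -0.17, which did not pass (adjusted p = 0.166) but did with that trend removed (adjusted p = 0.0383), 1 of 20 alternatives.

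Jak2 (chromosome 19, 29251828 to 29313080) encodes a kinase of the interferon-gamma, GM-CSF and IL-6 family receptors, not of the IL-10 receptor. It had 38.1, 36.0 and 33.1 TPM in knockout libraries with C. albicans, and 31.3, 32.0 and 30.5 TPM in knockout libraries with PBS. In wild type it had 50.0, 74.1 and 77.0 TPM with C. albicans, and 36.8, 38.7 and 36.5 TPM with PBS. Every wild-type C. albicans library was above all others, and replicate 1, at 50.0 TPM, was well below its fellows.

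The Jak2 response of 0.18 in the knockout did not pass (adjusted p = 0.394), and Jak2 rose by 0.80 in wild type (SE 0.12, adjusted p = 1.94e-04). The difference between the responses was -0.62 (95% interval -0.99 to -0.25, adjusted p = 0.0319). That call depended on the libraries and the setting: it passed in 8 of 20 alternatives and was lost on leaving out any 1 of 10 of the 12 libraries, the exceptions being replicate 1 of both C. albicans groups, with adjusted p between 1.12e-05 and 0.0768 over the alternatives. Without wild-type C. albicans replicate 1 it was -0.81 (adjusted p = 1.12e-05), with a knockout response of 0.18 that then passed (adjusted p = 0.0321) and a wild-type response of 1.00. With C. albicans the knockout was lower by a log2 difference of -0.87 (adjusted p = 1.17e-04), at 53.3% of the wild-type level. With PBS the difference of -0.25 did not pass (adjusted p = 0.139), but it did without wild-type C. albicans replicate 1 (adjusted p = 0.0021) and in a fit on the 6 PBS libraries alone.

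Stat3 (chromosome 11, 100885098 to 100939540), which carries the IL-10 signal to the nucleus, had 59.4, 59.6 and 61.3 TPM in knockout libraries with C. albicans, and 63.7, 60.6 and 60.6 TPM in knockout libraries with PBS. In wild type it had 62.4, 55.7 and 56.7 TPM with C. albicans, and 72.3, 76.7 and 76.3 TPM with PBS. The wild-type PBS libraries stood above the other 9, which overlapped one another.

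The Stat3 response of -0.04 in the knockout did not pass (adjusted p = 0.694), while Stat3 fell by 0.36 on the log2 scale in wild type (SE 0.05, adjusted p = 5.65e-05). The responses differed by 0.33 (95% interval 0.18 to 0.47, adjusted p = 0.00648), a call kept in 20 of 20 alternatives with values between 0.27 and 0.37. With PBS the knockout was lower by a log2 difference of -0.28 (adjusted p = 6.88e-04), which became -0.05 and did not pass with the length and GC trend removed. With C. albicans the difference was 0.04 (adjusted p = 0.486), and it passed as higher in the knockout with upper-quartile scaling, with that trend removed and with voom. The DMSO titles bear on the knockout PBS libraries used in these comparisons.

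**Figure D2:**
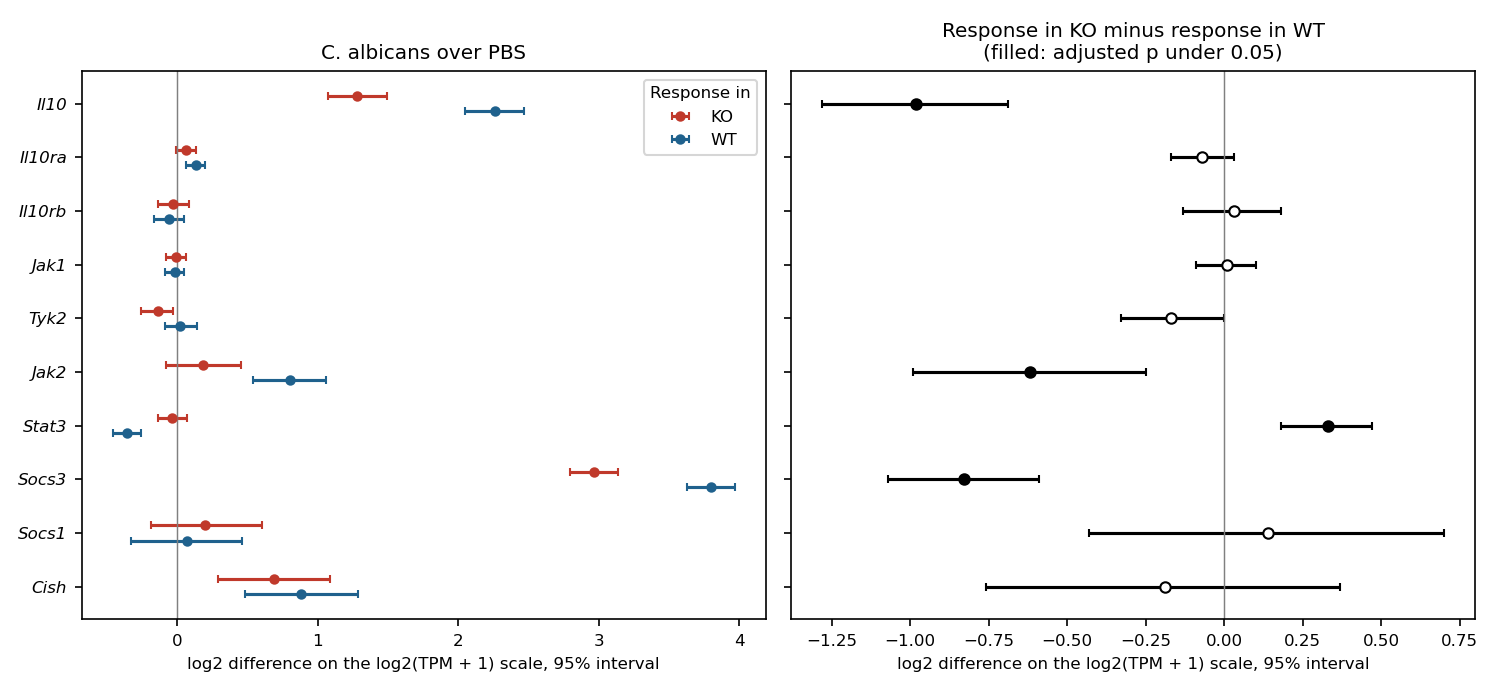
Left, log2 difference C. albicans over PBS with its 95% interval for each gene in the knockout and in wild type. Right, the knockout response minus the wild-type response, filled where the adjusted p is under 0.05: Il10 (-0.98), Socs3 (-0.83) and Jak2 (-0.62) lie below 0 and Stat3 (0.33) above it.

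Socs3 (chromosome 11, 117966079 to 117970047) encodes the inhibitor that binds receptors of the IL-6 family and the kinases on them. It had 30.0, 27.0 and 26.2 TPM in knockout libraries with C. albicans, and 2.42, 2.99 and 2.57 TPM in knockout libraries with PBS. In wild type it had 58.1, 54.9 and 59.0 TPM with C. albicans, and 2.91, 3.14 and 3.52 TPM with PBS. With the fungus the genotypes were far apart, and with PBS their libraries overlapped.

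Socs3 rose by 2.97 in the knockout (SE 0.08, adjusted p = 7.60e-11) and by 3.80 in wild type (SE 0.08, adjusted p = 2.40e-12), the largest response of the 10 genes in both. Mean TPM with C. albicans was 10.4 times that with PBS in the knockout and 18.0 times in wild type. The responses differed by -0.83 (95% interval -1.07 to -0.59, adjusted p = 4.24e-04), and the call was kept in 20 of 20 alternatives, between -0.94 and -0.76. The TPM gain in the knockout was 46.3% of that in wild type. With C. albicans the knockout held 48.4% of the wild-type level (log2 difference -1.02, adjusted p = 1.11e-06). With PBS it held 83.4% (-0.20, adjusted p = 0.0761), which passed in 1 of 21 alternatives, without knockout PBS replicate 2. S100a8 overlapped between treatments in the knockout and was higher with C. albicans in wild type, and its part in the Socs3 result was not tested.

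Socs3 and Stat3 levels are both per length, so their ratio can be read within a library. It was 0.505, 0.453 and 0.428 in knockout libraries with C. albicans, and 0.931, 0.985 and 1.04 in wild-type libraries with C. albicans. In PBS libraries it averaged 0.0432 ± 0.00569 in the knockout and 0.0424 ± 0.00324 in wild type (SD, n = 3 each). Of the 4 groups, wild type with the fungus alone had about as much Socs3 as Stat3 transcript. The ratio of Jak2 to Jak1 averaged 0.436 ± 0.0335 in knockout and 0.662 ± 0.144 in wild type with C. albicans, and 0.379 ± 0.0190 in knockout and 0.365 ± 0.0108 in wild type with PBS.

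**Figure D3:**
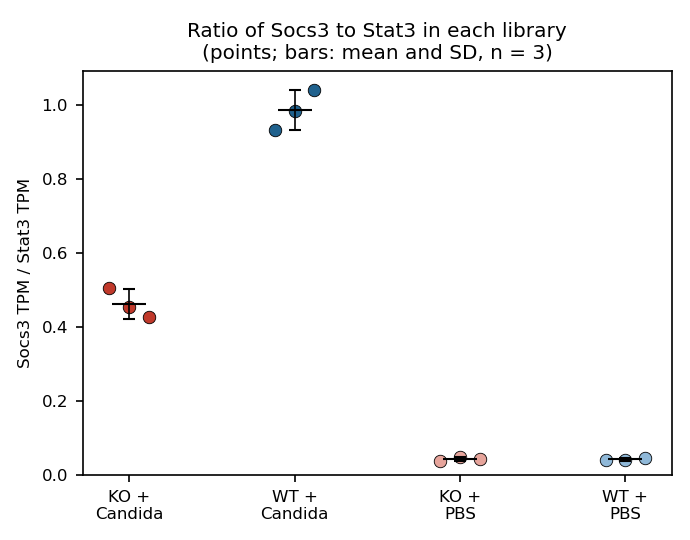
Ratio of Socs3 TPM to Stat3 TPM (y axis, from 0) in each library (points) with mean and SD (n = 3). Knockout C. albicans libraries lie between 0.428 and 0.505, wild-type C. albicans libraries between 0.931 and 1.04, and PBS libraries of both genotypes near 0.04.

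Socs1 (chromosome 16, 10782240 to 10785536) encodes the inhibitor of interferon receptors. It had 4.07, 3.79 and 3.69 TPM in knockout and 2.64, 4.70 and 4.27 TPM in wild-type libraries with C. albicans. With PBS it had 3.08, 2.67 and 4.0 TPM in knockout and 2.90, 3.21 and 4.79 TPM in wild-type libraries. All groups overlapped, and no comparison passed. The response was 0.20 in the knockout (adjusted p = 0.554) and 0.07 in wild type (95% interval -0.33 to 0.46, adjusted p = 0.792). At 52 to 114 reads per library, a wild-type change anywhere within that interval remains compatible with the data.

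Cish (chromosome 9, 107296026 to 107302784) encodes the inhibitor induced through STAT5, and it was the least abundant of the 10. It had 1.33, 1.54 and 2.04 TPM in knockout and 2.93, 1.94 and 1.43 TPM in wild-type libraries with C. albicans. With PBS it had 0.455, 0.640 and 0.803 TPM in knockout and 0.788, 0.496 and 0.676 TPM in wild-type libraries. Within each genotype the fungal libraries lay above the PBS libraries, and the genotypes overlapped under both treatments.

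Cish rose by 0.69 in the knockout (SE 0.19, adjusted p = 0.0427) and by 0.88 in wild type (SE 0.19, adjusted p = 0.00204). With voom on the recovered reads, a log scale less compressed at low levels, the rise was 1.43 in the knockout (adjusted p = 0.00806) and 1.62 in wild type (adjusted p = 7.42e-04). The knockout call was lost with the replicate block and on leaving out any 1 of 10 of the 12 libraries, the exceptions being wild-type C. albicans replicates 1 and 3, with adjusted p between 0.00806 and 0.153 over 21 alternatives. The responses differed by -0.19 (95% interval -0.76 to 0.37, adjusted p = 0.677), too wide an interval to call them alike. Antisense genes cover 7.46% (Gm17041) and 4.07% (Gm17040) of its exonic bases, and the sources used here do not say whether strand was used in counting.

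Promoter sequences of the 3 inhibitor genes are shown because these genes belong to a single family. A link between these sequences and the responses was not tested. They come from RefSeq windows of 300 bases, 250 before to 50 after the annotated start (GRCm38.p6), a table that matched 7 of the 10 genes, without Il10, Il10ra and Il10rb. For Socs3 and Cish the RefSeq start differs from the outer start of the GENCODE position given above. Their printed windows therefore lie inside that GENCODE position, while the printed window of Socs1 lies directly before it. The capitals mark matches to TTCNNNGAA, the spacing that STAT factors bind, or to GAAANNGAA, a core spacing of interferon regulatory factors. Both strands were searched.
Socs3, chr11:117969367-117969616, minus strand, bases -250 to -1: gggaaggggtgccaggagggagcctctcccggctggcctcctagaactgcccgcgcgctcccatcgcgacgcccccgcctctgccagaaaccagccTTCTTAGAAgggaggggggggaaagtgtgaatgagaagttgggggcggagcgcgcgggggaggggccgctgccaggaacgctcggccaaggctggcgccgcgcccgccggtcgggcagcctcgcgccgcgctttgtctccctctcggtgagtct
Socs1, chr16:10785537-10785786, minus strand, bases -250 to -1: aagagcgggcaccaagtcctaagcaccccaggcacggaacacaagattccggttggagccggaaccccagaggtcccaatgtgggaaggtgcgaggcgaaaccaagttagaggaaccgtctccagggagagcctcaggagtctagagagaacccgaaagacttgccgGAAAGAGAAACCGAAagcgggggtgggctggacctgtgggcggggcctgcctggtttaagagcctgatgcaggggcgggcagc
Cish, chr9:107296559-107296682, plus strand, bases -100 to 24: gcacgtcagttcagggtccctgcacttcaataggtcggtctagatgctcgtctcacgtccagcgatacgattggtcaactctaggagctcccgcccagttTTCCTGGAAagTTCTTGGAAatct

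TTCNNNGAA was present in 2 of the 7 windows, in Socs3 at bases -154 to -146 and in Cish at bases 1 to 9 and 12 to 20, and in 8.30% of 32851 promoter windows. GAAANNGAA was present in 1 of the 7, in Socs1 as 2 overlapping matches at -83 to -75 and -77 to -69, and in 8.56% of all windows. These matches describe the letters alone. The windows of Stat3, Jak1, Jak2 and Tyk2 hold neither.

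**Figure D4:**
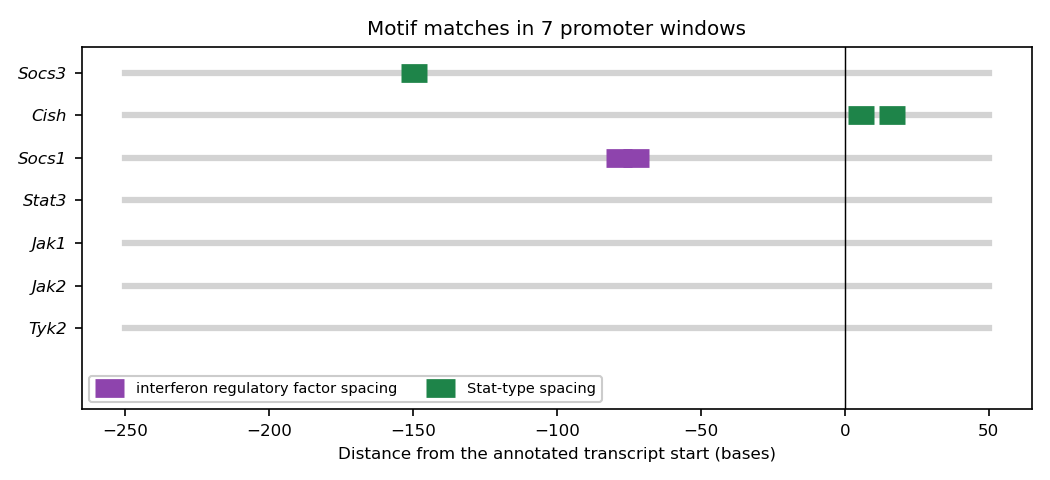
Positions of the 2 motif spacings (coloured blocks) in the promoter windows of 7 genes (grey lines), as distance in bases from the RefSeq start. Socs3 and Cish hold the STAT-type spacing, Socs1 the interferon regulatory factor spacing, and the windows of Stat3, Jak1, Jak2 and Tyk2 hold neither.

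Within wild-type PBS libraries the order of levels was Il10rb, then Jak1 at 102 ± 0.307 and Il10ra at 99.7 ± 1.82 TPM, Stat3 at 75.1 ± 2.43, Jak2 at 37.4 ± 1.21 and Tyk2 at 34.9 ± 2.0, then Socs1, Il10 and Socs3 at 3.64 ± 1.01, 3.48 ± 0.175 and 3.19 ± 0.311, and Cish at 0.653 ± 0.147 (TPM, SD, n = 3). The libraries of Jak2 and Tyk2 overlapped, as did those of Socs1, Il10 and Socs3. In wild type with C. albicans, Socs3 at 57.3 ± 2.19 TPM stood level with Stat3 at 58.3 ± 3.62 TPM, and Jak2 at 67.0 ± 14.8 TPM overlapped both. In the knockout with C. albicans, Socs3 at 27.8 ± 2.01 TPM stood level with Tyk2 at 27.4 ± 0.566 TPM and well under Stat3 at 60.1 ± 1.05 TPM.

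Counted over the circuit, the response in the knockout passed as higher for 3 of the 10 genes (Il10, Socs3, Cish), where 3.95% of all tested genes did, and as lower for none, where 3.15% did. At an unadjusted p under 0.05, 1 gene was lower, and voom called none lower. In wild type 5 genes were higher (Il10, Il10ra, Jak2, Socs3, Cish) against 16.1% of all tested genes, and 1 was lower (Stat3) against 28.3%. The median log2 response of the 10 was 0.12 in the knockout, beside -0.04 over all genes, and 0.10 in wild type, beside -0.07. Among all called genes, 55.7% were higher in the knockout response and 36.2% in the wild-type response, shares that became 77.4% and 55.0% with median-ratio scaling.

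The knockout against wild type with C. albicans gave 6 lower genes (Il10, Il10ra, Jak1, Tyk2, Jak2, Socs3) against 27.5% of all tested genes, and these calls held in all 21 alternatives. None was higher, where 12.4% of all genes were. At an unadjusted p under 0.05 none was higher either, while voom called 1 (Stat3). With PBS 4 genes were lower (Il10ra, Jak1, Tyk2, Stat3), against 26.2%, and 1 was higher (Il10), against 6.14%. The PBS count of 5 fell to 3 with median-ratio scaling (1 higher and 2 lower), where 1577 of 11280 tested genes were higher and 1608 lower. The median of the 10 was -0.26 with C. albicans, beside -0.05 over all genes, and -0.16 with PBS, beside -0.08. Higher calls made up 31.1% of all calls with C. albicans and 19.0% with PBS, and 46.7% and 49.5% with median-ratio scaling.

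The difference between responses passed for 4 of the 10, lower for 3 (Il10, Jak2, Socs3) where 6.33% of all tested genes were, and higher for 1 (Stat3) where 7.53% were. Of all such calls 54.3% were higher, and 41.6% with median-ratio scaling. These comparisons share libraries, so their counts are not independent. Without wild-type C. albicans replicate 1 the counts were 4 higher and 0 lower in the knockout response, 5 higher and 2 lower in the wild-type response, 0 higher and 6 lower for the knockout with C. albicans, 1 higher and 5 lower with PBS, and 1 higher and 3 lower for the difference between responses. Of all 11280 tested genes, in the same order, 663, 1885, 1749, 865 and 1473 were then higher. Lower were 824, 3536, 2951, 3360 and 1059.

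The counts of the 7 further gene lists are to be read against the same shares of all tested genes: 3.95% higher and 3.15% lower in the knockout response, 16.1% and 28.3% in the wild-type response, 12.4% and 27.5% for the knockout with C. albicans, 6.14% and 26.2% with PBS, and 7.53% and 6.33% for the difference between responses. These shares are those of limma on the TPM as deposited, and shares near them are no result about a list. Under an alternative the calls over all genes move too, so list counts there are to be read against that setting. With PBS, 693 of 11280 genes were higher and 2951 lower in the knockout. With median-ratio scaling 1577 were higher and 1608 lower, and with voom 1218 and 2024. With the length and GC trend removed 838 of 10694 were higher and 790 lower.

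Stat3 and IL-10 target genes, as a list of 20 of which 19 were tested, rose in 10 cases and fell in 1 in the knockout, and rose in 13 and fell in 3 in wild type. The list's median response was 0.24 in the knockout, beside -0.04 over all genes, and 0.77 in wild type, beside -0.07. Fos, a subunit of the AP-1 factor, had 96.4, 93.3 and 97.8 TPM in knockout and 122, 139 and 142 TPM in wild-type C. albicans libraries, and rose by 0.88 in the knockout and 1.8 in wild type. Zfp36, which encodes an RNA-destabilising protein, rose by 0.63 in the knockout and 0.87 in wild type. Junb, another AP-1 subunit, rose by 0.75 in the knockout and 1.33 in wild type, and the kinase gene Pim1 by 0.89 in the knockout and 1.11 in wild type. Il1rn, the interleukin-1 receptor antagonist, had 267, 263 and 262 TPM in knockout and 362, 435 and 431 TPM in wild-type libraries with C. albicans. Its knockout response of 0.04 did not pass, while it rose by 0.77 in wild type (adjusted p = 3.97e-07), and the responses differed by -0.73 (adjusted p = 1.10e-04).

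Over that list the response was smaller in the knockout for 10 genes by the test of the difference and larger, in signed terms, for 2, with a median difference of -0.35 beside 0.02 over all genes. With C. albicans 15 were lower in the knockout and 1 was higher. With PBS 6 were lower and 3 higher, and with median-ratio scaling 1 was lower and 5 higher. Several of these targets also answer NF-kB or MAP kinase signals, so the list does not measure STAT3 activity alone.

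**Figure D5:**
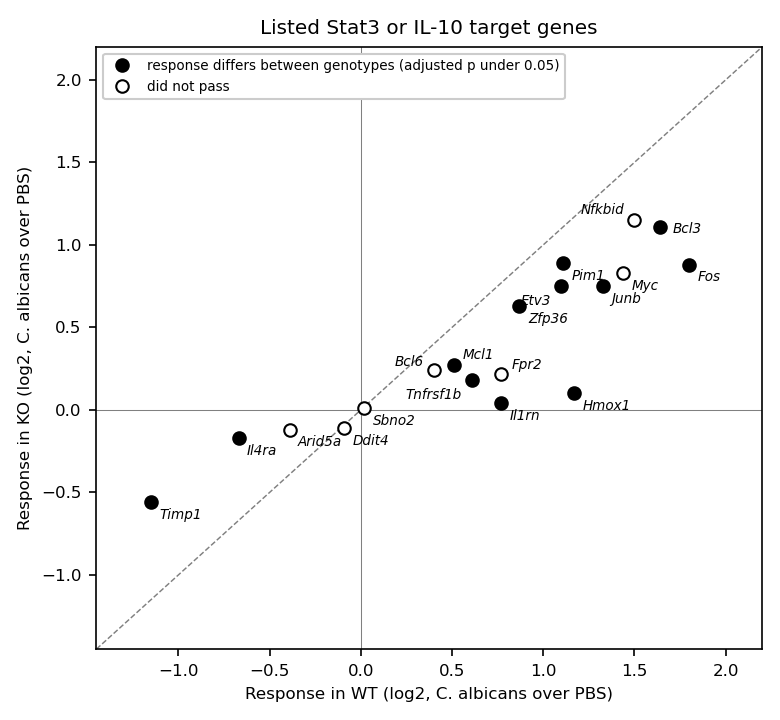
Response to C. albicans of 19 listed Stat3 or IL-10 target genes, in the knockout (y axis) against wild type (x axis), both as log2 C. albicans over PBS, with the dashed line marking equal responses. Filled points passed the test of the difference, and Il1rn and Fos lie well below the line, at knockout values of 0.04 and 0.88 beside wild-type values of 0.77 and 1.8.

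Transcription factors that act on Il10 numbered 16, of which 15 were tested. In the knockout 5 rose and 2 fell. In wild type 8 rose, beside 16.1% of all genes, and 3 fell, beside 28.3%. Prdm1, which encodes the repressor and Il10 activator BLIMP-1, had 11.4, 11.7 and 13.4 TPM in knockout and 23.4, 20.9 and 17.9 TPM in wild-type C. albicans libraries. It rose by 0.87 in the knockout and 1.46 in wild type, a difference of -0.58 (adjusted p = 0.0111). Rel, an NF-kB subunit, rose by 0.91 in the knockout and 1.5 in wild type. Cebpb, a factor of inflammatory genes, rose by 0.49 in the knockout and 0.75 in wild type, and Egr2, a zinc-finger factor, by 1.01 in the knockout and 1.66 in wild type. Ahr, the aryl hydrocarbon receptor, rose by 0.92 in wild type, with a knockout value of -0.01 that did not pass and a difference of -0.93 (adjusted p = 0.0108). In all, the response difference was negative for 6 and positive for 2 of the 15. With C. albicans 9 were lower and 3 higher in the knockout, and with PBS 6 were lower and 3 higher, which became 4 lower and 5 higher with median-ratio scaling and 0 lower and 4 higher with the length and GC trend removed.

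Cytokines and receptors that act through Stat3 numbered 18, and 8 were tested. In the knockout 1 rose and 1 fell. In wild type 3 rose, beside 16.1% of all genes, and 4 fell, beside 28.3%. Osm, encoding oncostatin M, had 27.5, 25.4 and 26.1 TPM in knockout and 37.0, 38.2 and 35.7 TPM in wild-type C. albicans libraries, and rose by 0.43 in the knockout and 0.89 in wild type, a difference of -0.46 (adjusted p = 0.00116). Il27, a cytokine subunit gene, had 0.46 in the knockout, which did not pass (adjusted p = 0.195), and rose by 1.38 in wild type (adjusted p = 1.69e-04), at levels of at most 4.47 TPM. Its response difference of -0.92 did not pass (adjusted p = 0.0533), but it did with the length and GC trend removed (adjusted p = 0.0468). The receptor genes Il21r and Csf3r had -0.05 and -0.02 in the knockout, which did not pass, and fell by 0.53 and 0.38 in wild type. The response difference passed as positive for 3 and negative for 1. In the knockout 4 were lower and 1 higher, both with C. albicans and with PBS, but with C. albicans 2 were lower and 2 higher with upper-quartile scaling and with voom.

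Of 12 other Jak, Stat and Socs genes, none passed in the knockout response by limma, where 1 was higher and 1 lower at an unadjusted p under 0.05 and voom called 1 lower. In wild type 5 fell, beside 28.3% of all genes, and none rose, beside 16.1%. Of these 12, 1 was higher at an unadjusted p under 0.05, voom called none higher, median-ratio scaling called 1, and 2 were called with the length and GC trend removed or without wild-type C. albicans replicate 1. Socs6, an inhibitor of receptor tyrosine kinase signalling, had -0.23 in the knockout and fell by 0.81 in wild type. The knockout value did not pass (adjusted p = 0.0805), but it did with voom (adjusted p = 0.0218) and without wild-type C. albicans replicate 1 (adjusted p = 0.00784). Jak3, the kinase of gamma-c receptors, had -0.04 in the knockout, which did not pass, and fell by 0.59 in wild type. Their response differences were 0.58 (adjusted p = 0.0032) and 0.55 (adjusted p = 0.0022), the pair that passed. Stat5b, a factor downstream of gamma-c and beta-c receptors, had -0.12 in the knockout, which did not pass, and fell by 0.35 in wild type. With C. albicans 5 were lower and 2 higher in the knockout, which became 3 lower and 3 higher with median-ratio or upper-quartile scaling and with voom. With PBS 9 were lower, of which the same test called 5 with median-ratio scaling and 2 with the length and GC trend removed.

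Among 13 genes that restrain the pathway (Pias proteins, phosphatases and also Cbl), none rose and 1 fell in the knockout. There 1 was higher at an unadjusted p under 0.05 and voom called 1 higher. In wild type 3 rose, beside 16.1% of all genes, and 3 fell, beside 28.3%. Cbl, encoding a ubiquitin ligase, had 31.1, 31.2 and 29.5 TPM in knockout and 92.7, 82.0 and 80.9 TPM in wild-type libraries with C. albicans, with log2 differences of -1.45 with C. albicans (adjusted p = 5.95e-08) and -1.38 with PBS (adjusted p = 1.86e-07). It rose by 0.31 in wild type, and its knockout response of 0.24 did not pass (adjusted p = 0.073). That knockout response did pass with median-ratio scaling (adjusted p = 0.0269), upper-quartile scaling (adjusted p = 0.0392) or voom (adjusted p = 0.0178). Leaving out replicate 1 of the wild-type C. albicans group also made it pass (adjusted p = 0.0344). Between genotypes the Cbl responses did not differ detectably (-0.07, adjusted p = 0.734). Ptpn1, a phosphatase that acts on JAK2 and TYK2, had -0.11 in the knockout, which passed without wild-type C. albicans replicate 1 (adjusted p = 0.0225) and not with all libraries, and fell by 0.52 in wild type, a difference of 0.41 (adjusted p = 0.00221). Pias3, an inhibitor of STAT3, fell by 0.28 in the knockout and 0.25 in wild type, and neither fall passed with the length and GC trend removed. Pias4 fell by 0.21 in wild type, which did not pass with that trend removed or with median-ratio scaling. In the knockout 8 were lower and 1 higher with each treatment. With the length and GC trend removed 3 were lower with each treatment, and with median-ratio scaling 4 were lower and 3 higher with PBS. The response difference passed for Ptpn1 alone, as positive.

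Of 14 receptor and cytokine genes of the gamma-c and beta-c families, which are known to induce Cish, 10 were tested. None rose and 2 fell in the knockout, none rose at an unadjusted p under 0.05 and voom called none higher. In wild type 2 rose, beside 16.1% of all genes, and 6 fell, beside 28.3%. Il2rg, the gamma-c chain, had 0.00 in the knockout and fell by 0.36 in wild type, and Il4ra, the IL-4 receptor chain, had -0.17 in the knockout and fell by 0.67 in wild type. Neither knockout value passed with all libraries, and that of Il4ra did without wild-type C. albicans replicate 1 (adjusted p = 0.0139). Csf2rb, the beta-c chain, fell by 0.21 in each genotype, though not in wild type with the length and GC trend removed. Il2rb fell by 1.47 in wild type at levels of at most 2.22 TPM. The response difference was positive for 4 and negative for 1, or 3 with median-ratio scaling. In the knockout 2 were higher and 1 lower with C. albicans, where 4 were higher with upper-quartile scaling and 5 with voom, and 2 were higher and 3 lower with PBS.

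Of 10 interferon receptor and Socs1-related genes, 2 rose in the knockout, beside 3.95% of all genes. In wild type 5 rose, beside 16.1%, and 1 fell, beside 28.3%. None fell in the knockout, none fell at an unadjusted p under 0.05 and voom called none lower. Irf1, an interferon regulatory factor, had 84.1, 82.7 and 86.7 TPM in knockout and 143, 114 and 118 TPM in wild-type C. albicans libraries, and rose by 1.13 in the knockout and 1.35 in wild type. Ifnar1 rose by 0.24 in the knockout and 0.36 in wild type, and Ifngr2 and Ifngr1 had 0.12 and 0.11 in the knockout and rose by 0.28 and 0.25 in wild type. The knockout value of Ifngr2 did not pass (adjusted p = 0.0808), but it did with median-ratio or upper-quartile scaling, with the length and GC trend removed, with voom and without wild-type C. albicans replicate 1 (adjusted p between 0.0122 and 0.0365). That of Ifngr1 (adjusted p = 0.111) passed with median-ratio scaling (adjusted p = 0.0382). No response difference passed by limma on the TPM as deposited or by voom, and at an unadjusted p under 0.05 there were 3 negative and 1 positive. With median-ratio scaling 2 passed as negative, Ifnar1 (adjusted p = 0.0485) and Ifngr2 (adjusted p = 0.0222), and Ifngr2 also did with the length and GC trend removed (adjusted p = 0.0314). With C. albicans 7 were lower in the knockout and with PBS 5, against 4 and 2 with median-ratio scaling. None was higher with either treatment by limma on the TPM as deposited, at an adjusted or an unadjusted p under 0.05. With C. albicans 1 was higher with voom, with either scaling, without wild-type C. albicans replicate 1 and with the length and GC trend removed. With PBS 1 was higher with median-ratio scaling and with that trend removed, and none with voom.

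Genes whose pattern was most like 3 of the members were found by Pearson correlation of log2(TPM + 1) over the 12 libraries, a description over libraries that fall into 4 groups. For Socs3 they were Nfkbiz, Tnf, Nfkbia, Gem and Nfkbie (r between 0.996 and 0.997), of which Nfkbia, Nfkbie and Nfkbiz encode members of the inhibitor of NF-kB family. Nfkbiz averaged 48.5 TPM in knockout and 103 TPM in wild type with C. albicans, and 5.34 TPM in knockout and 6.49 TPM in wild type with PBS. For Il10 they were Gdf15, Dusp1, Junb, Ccrl2 and Pnrc1 (r between 0.989 and 0.995), of which Gdf15 encodes a stress-induced cytokine and Dusp1 a phosphatase of MAP kinases. Dusp1 averaged 295 TPM in knockout and 445 TPM in wild type with C. albicans, and 162 TPM in knockout and 144 TPM in wild type with PBS. For Stat3 they were Timp2, Rxra, Incenp, Rcc2 and Tep1 (r between 0.974 and 0.985). Rxra, a retinoid receptor, averaged 48.2 TPM in knockout and 45.9 TPM in wild type with C. albicans, and 52.0 TPM in knockout and 73.2 TPM in wild type with PBS. Il10 and Socs3 themselves had r = 0.979.

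The authors' deposited table holds a comparison of C. albicans over PBS in wild type, made on reads. In the authors' deposited table the log2 fold change was 4.24 for Socs3, 2.64 for Il10, 1.76 for Cish, 0.93 for Jak2, 0.21 for Il10ra and -0.29 for Stat3, each with an adjusted p under 0.05. The authors' deposited table gives adjusted p = 0.643 for Socs1, 0.753 for Il10rb, 0.151 for Jak1 and 0.196 for Tyk2.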

How the data were processed

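The deposited table holds TPM for 25230 genes in 12 libraries, made by the authors. The submitters' processing notes name the build mm10, the aligner STAR 2.7.5a, cutadapt 2.6, CASAVA 1.8 and DESeq2 1.34.0. The sources used here do not give the counter, its strand setting or the annotation. Per the file headers it also holds the authors' mean signal, log2 fold change with its error, Wald score, and p-value with its adjusted value. The deposited log2 fold change belongs to wild type, C. albicans over PBS: log2 ratios of scaled reads differed from it by a median of 0.000968 over 9555 genes, and by 0.130 or more for every other pair of groups.

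Whole reads were recovered from the TPM and the mean signal. All of 124665 values under 1000 reads (100%) were whole within 0.01 read. They gave the depth, 16400119 to 25741091 reads in genes, and an alternative fit with voom. A read in a gene of median length was worth 0.0275 to 0.0436 TPM.

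Groups follow the genotype and treatment labels. limma 3.58.1 in R 4.3.3 was fitted on log2(TPM + 1), with 4 group means, 8 residual degrees of freedom, variance trend on and robust off. A gene was tested if it had a symbol and reached 1 TPM in 3 or more libraries (11280), and 28 rows had no symbol. P-values are two-sided, adjusted by Benjamini-Hochberg over all tested genes within a comparison, with a threshold of 0.05. Compared were C. albicans over PBS within each genotype, knockout over wild type within each treatment, and the interaction, which is the knockout response minus the wild-type response. The fit was tested on simulated data. Alternatives were a pseudocount of 0.1, no filter, median-ratio and upper-quartile scaling, a length and GC trend removed (94.8% of tested genes had both), the trend off, the replicate block, the comparison's own libraries, voom, and each library left out.

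The 10 genes and 7 further lists were chosen with earlier results of these data known. All 10 are named. Of each list, up to 4 genes with the smallest p in the wild-type response and up to 2 in the interaction are named, and for likeness the 5 highest correlations. A gene that this rule names is not reported here.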

Additional observations from a re-analysis of the deposited data

Results flagged for a closer look

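For 4 of the 10 genes the response to C. albicans differed between the genotypes by the interaction test (limma, Benjamini-Hochberg over 11280 genes). The knockout response minus the wild-type response was -0.98 for Il10 (adjusted p = 4.96e-04), -0.83 for Socs3 (adjusted p = 4.24e-04), -0.62 for Jak2 (adjusted p = 0.0319) and 0.33 for Stat3 (adjusted p = 0.00648). In Il10, Socs3 and Jak2 all 3 knockout libraries with C. albicans lay below all 3 wild-type libraries with C. albicans. The same held for Il10ra, Jak1 and Tyk2, whose response difference did not pass, so this separation is not particular to the flagged genes. The share of all tested genes that separate in this way was not counted. In Stat3 the genotypes overlapped with C. albicans, and all 3 knockout libraries lay below all 3 wild-type libraries with PBS. The knockout PBS libraries whose titles name DMSO enter each of these values.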

How the results depend on the processing

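Of 1040 single-gene values under the alternatives, 39 lost the call, 10 gained it and the other 991 stayed on their side of the threshold. No called value changed sign, while 45 values changed sign without being called in either fit, all of Cish, Il10rb, Jak1, Socs1, Stat3 or Tyk2, with values between -0.18 and 0.15. The interaction calls of Il10, Socs3 and Stat3 were kept in 20 of 20 alternatives and that of Jak2 in 8. The number of genes called in the knockout effect with PBS, 5 of 10, became 3 with median-ratio and 3 with upper-quartile scaling, 2 with voom and 1 after removing the length and GC trend, and ranged between 3 and 6 when a library was left out (3 without knockout PBS replicate 1). Calls over all tested genes in that comparison moved as well, from 693 higher and 2951 lower. They became 1577 and 1608 with median-ratio scaling, 1294 and 1853 with upper-quartile scaling and 1218 and 2024 with voom. With the length and GC trend removed they were 838 and 790 of 10694. The counts of the 10 genes in the other 4 comparisons stayed within 1.5 times. With the replicate block, the calls were 6 in the wild-type response, 2 in the knockout response (3 without the block, with Cish lost at adjusted p = 0.07), 5 and 6 in the knockout effects with PBS and C. albicans, and 4 in the interaction. Replicate numbers carry no stated pairing, and deviations of same-numbered libraries correlated between -0.0549 and 0.0867. Only between knockout PBS and wild-type PBS did every library correlate best with its own number. Low levels limit Cish (11 to 71 reads per library) and Socs1 (52 to 114).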

Other observations

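Several ligands and receptors of the Stat3 pathway did not reach the filter of 1 TPM in 3 libraries. Il6, the best known activator of Stat3 besides Il10, reached at most 1.44 TPM (24 reads) in any library. Lif reached at most 0.512 TPM, Csf3 0.593 TPM, the oncostatin M receptor gene Osmr 0.108 TPM and the leukaemia inhibitory factor receptor gene Lifr 0.494 TPM. Il22 and its receptor gene Il22ra1 had no read in any library. The ratio of Socs3 to Socs1 averaged 7.20 ± 0.151 in knockout and 15.8 ± 5.45 in wild type with C. albicans, and 0.850 ± 0.246 in knockout and 0.904 ± 0.147 in wild type with PBS (SD, n = 3 each).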
